A study of Mus musculus with 5 samples.

Results

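H19, Dlk1, Meg3, Peg3, Plagl1, Grb10, Ndn and Mest are 8 of the 28001 features counted in 5 single-cell RNA libraries from mouse hindlimb muscle, and they were taken by symbol, whatever their values. They belong to what is often called the imprinted gene network. An imprinted gene is read mainly from the copy inherited from one parent, and many such genes act on growth before birth. In mice several of the network's genes are high in fetal tissues and low in most adult ones, and in muscle some are known from stem cells and regeneration. The question for these data is how much of each member the labelled mesenchymal cells of adult muscle held before and after injury, in which cells, and whether the members moved together.

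The cells came from C57BL/6J mice of genotype Hic1CreERT2/CreERT2;Rosa26LSLtdTomato/+. Both copies of Hic1, a gene of mesenchymal progenitors, carry the tamoxifen-inducible Cre, so every group, quiescent included, was marked through Hic1 activity at the time of tamoxifen and had no unmodified Hic1 copy by its label. All mice received 2.5 mg of tamoxifen in 100 uL of sunflower oil on each of 5 days at 8 weeks of age, and then waited 10 days. The 5 groups were whole hindlimb muscle at quiescence and at 1, 2, 4 and 14 days after an injury with notexin, a snake venom toxin that destroys muscle fibres. tdTomato-positive cells were sorted, so the sort fixed which cells could appear. Each group was 1 library, and the labels do not give the number of mice in it. The differences below therefore have no replicate check, every interval covers counting error only, and the animals, the capture and the time point cannot be told apart.

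After a limit of at least 500 genes and at most 10% mitochondrially encoded UMIs (unique molecular identifiers, each tagging 1 captured transcript), 17085 of 17213 barcodes were kept. Their UMIs totalled between 8011891 (quiescent) and 44539781 (day 1) per library, and the median cell had between 3771.5 (quiescent) and 10765 UMIs (day 2). Before that limit the lowest deposited barcode had 797 UMIs in the quiescent library and 2311 to 3647 on days 1, 2 and 4. The lowest depth of a deposited cell thus differed between libraries. Libraries shared 153 barcodes, with 8 to 26 for each pair of libraries. Tenocytes, the cells of tendon, were cells with at least 5 UMIs summed over Tnmd, Fmod, Kera and Chad, and there were 1394. Mural cells, which wrap small vessels, had at least 5 over Rgs5, Kcnj8, Abcc9 and Higd1b, and there were 608. The remaining 15077 cells are called the rest, and 6 cells past both limits were left out. In every library all 9 listed progenitor markers were detected in the rest, all 8 tenocyte markers in the tenocytes and all 8 mural markers in the mural cells; 4 markers of each of those last lists set the gate itself. UMIs were summed per class and library and given as CPM, the counts per 1e6 of that sum. A ratio of sums was called higher or lower when it reached 2-fold with at least 20 CPM in the higher sum.

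All 8 members lie apart on the GRCm38 (mm10) assembly in GENCODE M21, except that Dlk1 (chr12:109452823-109463336, plus strand) and Meg3 (chr12:109541001-109571726, plus strand) are neighbours. H19 (chr7:142575529-142578143, minus strand) holds the microRNA gene Mir675 on its own strand. Mest (chr6:30723547-30748465, plus strand) holds Mir335 and overlaps Copg2 on the opposite strand. Peg3 (chr7:6703892-6730431, minus strand) and Ndn (chr7:62346569-62350262, plus strand) share chromosome 7 with H19. Plagl1 lies at chr10:13060504-13131694 on the plus strand, and Grb10 at chr11:11930508-12038683 on the minus strand.

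Promoter windows of 250 bases before to 50 after the annotated start were read from RefSeq on GRCm38.p6 for 7 of the 8 members, 11 windows in all. H19 has none here. The windows were searched on both strands for GGGGCCCC, letters bound by Plagl1, the zinc-finger factor among the members; for GCCATNTT, letters of the factor YY1; and for TATAAA, the core of a TATA box. Only the Peg3 window held GGGGCCCC, which 354 of all 32851 windows (1.08%) held. GCCATNTT was in none of the 11 windows and in 6.05% of all windows. TATAAA was in the first Meg3 window alone, on both strands of one overlapping stretch, and in 13.6% of all windows. These are matches of letters and show no binding. The 2 windows with a match are printed 5′ to 3′, Peg3 because it carries the letters of another member and Meg3 because no other member had TATAAA. Capitals mark the match, which in Peg3 begins at base 50 of the window chr7:6730370-6730669 (minus strand), and in Meg3 is the stretch TTTATATAAA of the window chr12:109540746-109541045 (plus strand).
Peg3: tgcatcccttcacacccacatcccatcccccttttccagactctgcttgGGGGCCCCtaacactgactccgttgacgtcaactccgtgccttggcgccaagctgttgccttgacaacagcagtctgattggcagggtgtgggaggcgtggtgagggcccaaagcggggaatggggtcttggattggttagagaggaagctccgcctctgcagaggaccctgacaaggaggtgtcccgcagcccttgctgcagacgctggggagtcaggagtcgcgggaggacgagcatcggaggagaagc
Meg3: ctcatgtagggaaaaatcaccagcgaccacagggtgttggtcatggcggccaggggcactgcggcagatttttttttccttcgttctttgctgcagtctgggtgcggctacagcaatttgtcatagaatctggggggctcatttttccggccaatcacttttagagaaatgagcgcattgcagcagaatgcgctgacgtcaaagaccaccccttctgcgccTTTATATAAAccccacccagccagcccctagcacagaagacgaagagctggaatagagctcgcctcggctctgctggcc

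In the rest cells most members were lower on day 1 after injury than in quiescent muscle, and highest on day 4. On day 1 all 6 members that reached 20 CPM in the higher sum were at least 2-fold lower and none was higher, where 24.3% of the 6045 genes compared were called lower and 15.5% higher. Under TMM or DESeq2 scaling 3 of the 6 stayed called. On day 2 Meg3, Peg3 and Mest, 3 of 7, were called lower and H19 higher, where 17.4% of genes were called lower and 11.3% higher. Under those scalings Meg3 and Peg3 were short of 2-fold, and Mest kept a ratio past 2-fold but not 20 CPM. On day 4 H19 and Mest were called higher, 2 of the 7 members that reached 20 CPM, and none lower, where 6.34% of 5945 genes were called higher and 9.92% lower. On day 14 H19 alone was called higher, where 1.04% of genes were. Over the members that reached 20 CPM, the median log2 ratio to quiescence was -2.39 on day 1 (-0.15 over all genes compared) and 0.83 on day 4 (0.02 over all genes). Marker sums of the rest also differed between libraries, and such sums cannot tell a change in the cells present from a change in their expression. The 9 progenitor markers summed to 70106, 21465, 20399, 38881 and 70550 CPM from quiescence to day 14. The 6 endothelial markers summed to 31.3, 8.51, 9.26, 7.59 and 23.3 CPM, the 6 leukocyte markers to 2.87 to 16.1 CPM and the 6 nerve sheath markers to 3.75 to 114 CPM, highest on day 14. Their part in the members' values was not tested.

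**Figure D1:**
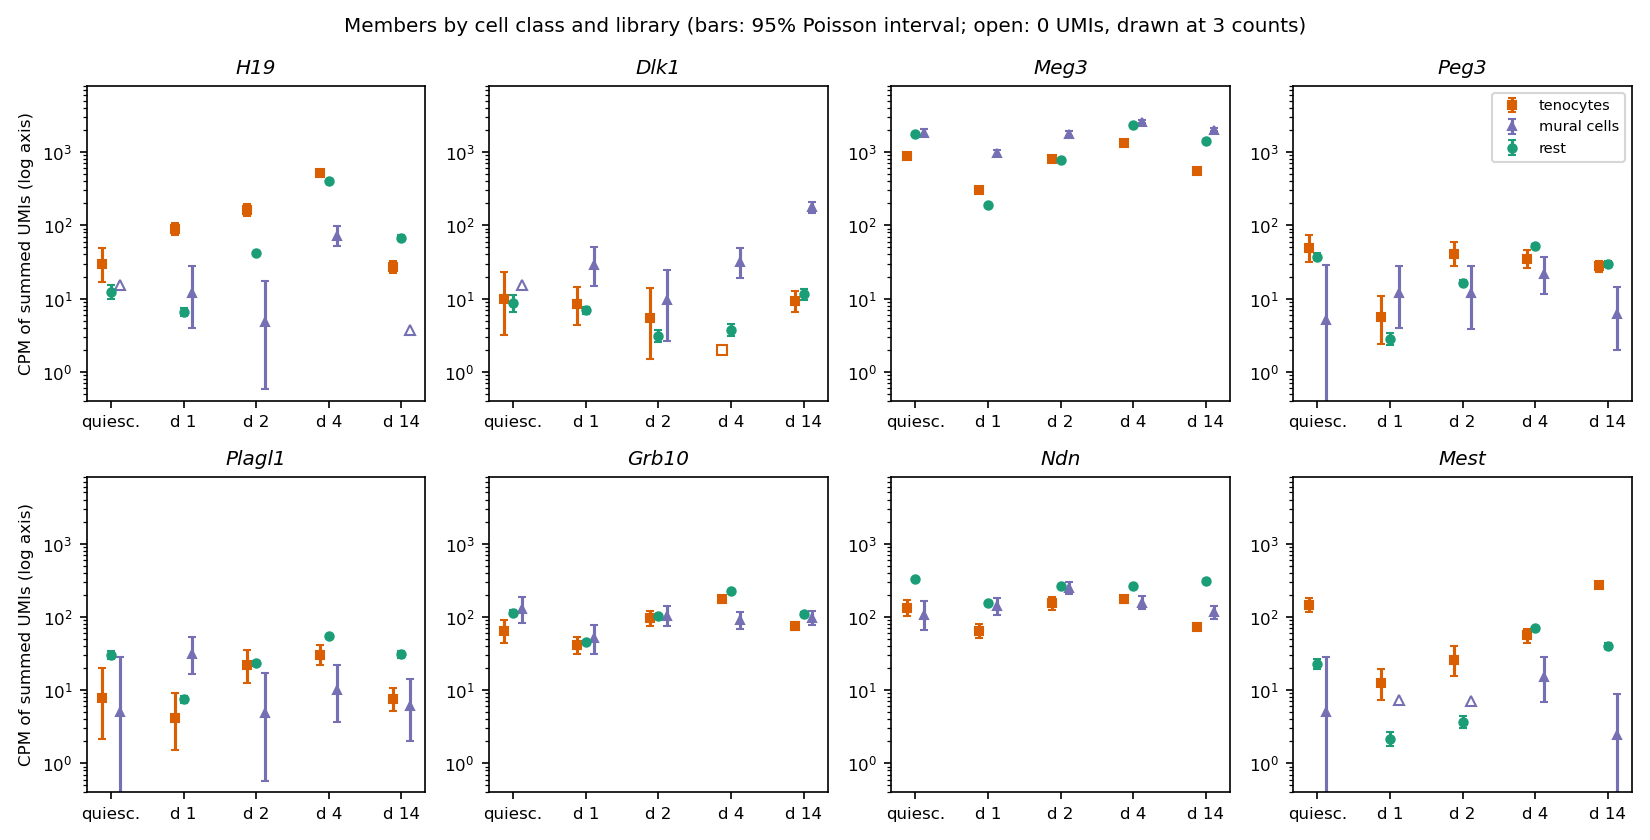
CPM of each member (log axis, 1 panel per gene) in tenocytes (squares), mural cells (triangles) and the rest (circles) of the 5 libraries; bars are 95% Poisson intervals, and open symbols are sums of 0 UMIs drawn at 3 counts. In the rest, 6 members were highest on day 4, while Dlk1 was highest on day 14 and Ndn in the quiescent library.

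H19 is a noncoding RNA made from the maternal copy, and its transcript is the source of miR-675. H19 measured 12.3, 6.51, 41.4, 397.4 and 68.1 CPM in the rest at quiescence and on days 1, 2, 4 and 14. All 5 intervals were apart, and the highest library was 61-fold above the lowest. Day 4 was 32.3-fold higher than quiescence (95% interval 26.2 to 40.2), day 2 was 3.36-fold higher (2.71 to 4.21) and day 14 was 5.53-fold higher (4.45 to 6.95). On day 1 the ratio to quiescence was 0.529, with both sums under 20 CPM. H19 was the 1 member called higher than at quiescence on each of days 2, 4 and 14, and TMM scaling left all 3 calls (3.99, 35.3 and 5.61).

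The H19 of day 4 was unevenly spread over cells. Its 11947 UMIs lay in 1246 of 3810 rest cells (32.7%), and the 126 fullest of these cells held 0.5 of them, with 169 in 1 cell. After each cell was thinned to 1000 UMIs, which evens out depth and left out 24 shallow quiescent rest cells, the share of rest cells with an H19 UMI was 0.800%, 0.529%, 3.41%, 14.1% and 3.22% from quiescence to day 14. Before thinning the shares were 2.00%, 2.14%, 16.8%, 32.7% and 7.88%. The mural cells of the same libraries had no H19 UMI after thinning except on day 4, when 2 of 114 cells (1.75%) did. In 243 mural cells of day 14, a count of 0 allows a share of up to 1.23%. The median depth was 4059 UMIs in the mural cells of day 4 and 7071.5 in the rest, so the share in mural cells, which free RNA could also give, stayed well below that in the rest at equal depth.

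Myogenic cells also make H19, Peg3 and Mest, and their markers were also higher on days 4 and 14. The 8 listed markers summed to 9.17, 9.58, 9.77, 41.8 and 31.5 CPM in the rest. Of the 11947 H19 UMIs of day 4, 357 (2.99%) lay in the 82 of 3810 rest cells with at least 3 myogenic UMIs. Those cells held 8.56% of the Peg3 UMIs and 5.93% of the Mest UMIs of that day. The part of myogenic cells in the members' values was not tested.

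Mest encodes a protein with an alpha/beta-hydrolase fold, is read from the paternal copy and hosts miR-335. It measured 22.6, 2.16, 3.63, 69.6 and 40.2 CPM in the rest. All 5 intervals were apart. Day 1 was 10.5-fold lower than quiescence (8.07 to 13.7) and day 2 was 6.21-fold lower (4.87 to 7.95), while day 4 was 3.08-fold higher (2.63 to 3.64). Between day 4 and day 2 the ratio was 19.2 (15.9 to 23.3), the widest step of any member between neighbouring time points. Copg2, which overlaps Mest on the other strand, stayed between 10.7 and 19.8 CPM in the rest, and the counting of strand is not given in the sources used here. Day 14 was 1.78-fold above quiescence (1.49 to 2.14), which is not a call.

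**Figure D2:**
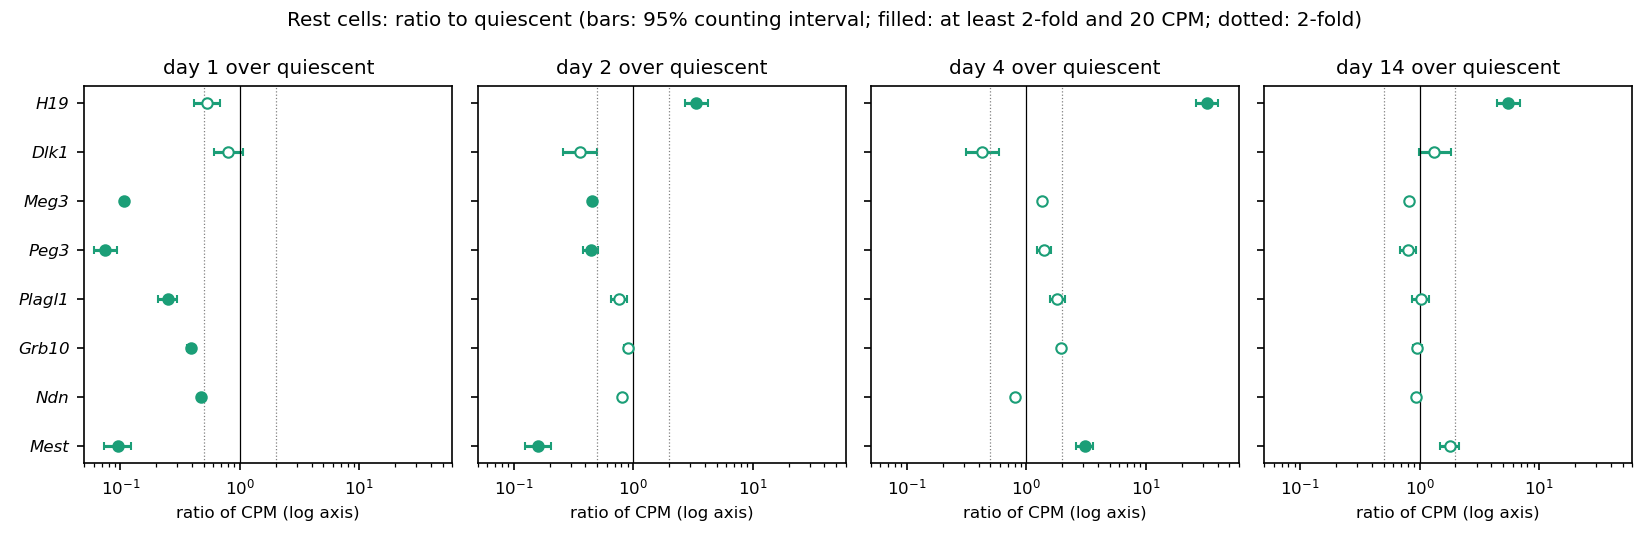
Ratio of CPM in the rest of days 1, 2, 4 and 14 over the quiescent library for each member (log axis); bars are 95% counting intervals, filled points were called and dotted lines mark 2-fold. On day 1 all points lie left of 1 (Dlk1 would be right of it under TMM scaling), and on day 4 H19 (32.3-fold) and Mest (3.08-fold) are filled on the right.

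Meg3 and Dlk1 come from one locus. Meg3 is a maternally read noncoding RNA, and Dlk1 a paternally read membrane protein with EGF-like repeats that holds back adipocyte formation. Meg3 measured 1749, 189, 793, 2370 and 1415 CPM in the rest, from 8049 to 71242 UMIs per library. Its order was day 4, quiescent, day 14, day 2 and day 1, with all intervals apart. Day 1 was 9.27-fold lower than quiescence (9.02 to 9.54), day 2 was 2.21-fold lower, and day 4 was 1.36-fold higher, which is not a call. The share of rest cells with a Meg3 UMI after thinning was 67.7%, 16.6%, 46.3%, 66.5% and 54.7%, so on day 1 fewer cells held it at equal depth. Unthinned, these shares were 86.1%, 50.2%, 87.2%, 89.5% and 78.7%.

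A pair of other long noncoding RNAs held in the nucleus stand beside Meg3 as a view on RNA quality. Malat1 measured 30673, 10185, 8389, 12727 and 26494 CPM in the rest, and Neat1 342, 172, 256, 259 and 397 CPM. Both were lowest on days 1 and 2, and neither was highest on day 4 as Meg3 was. Their part in the Meg3 values was not tested.

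Dlk1 was scarce in the rest, at 8.62, 6.89, 3.10, 3.69 and 11.5 CPM from 63, 294, 98, 111 and 143 UMIs. It never reached 20 CPM there, and only day 1 and day 4 differed as neighbours in its order. On day 14, 5 cells held 0.5 of its UMIs, with 27 in 1 cell. Its day 4 over quiescence was 0.428 (0.312 to 0.593) and its day 14 over day 4 was 3.11 (2.41 to 4.02), with all sums under 20 CPM, whereas its neighbour Meg3 was highest on day 4.

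Peg3 and Plagl1 are zinc-finger proteins read from the paternal copy. Peg3 measured 37.5, 2.81, 16.5, 52.9 and 29.9 CPM in the rest, with all 5 intervals apart. Day 1 was 13.3-fold lower than quiescence (10.7 to 16.7), the largest ratio among the members on that day, and day 2 was 2.27-fold lower. Plagl1, a transcription factor that in mice regulates other genes of the network, measured 30.1, 7.47, 23.1, 54.4 and 30.8 CPM. It was 4.03-fold lower on day 1 (3.38 to 4.80) and 1.81-fold higher on day 4, which is not a call (1.98 under TMM). Peg3, Plagl1 and Mest reached 20 CPM on day 1 only through the quiescent sum.

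Grb10 is an adaptor that dampens insulin and IGF signalling, and Ndn (necdin) is a MAGE-family protein that holds back cell division. Grb10 measured 114, 44.7, 103, 224 and 110 CPM in the rest. Day 1 was 2.55-fold lower than quiescence (2.35 to 2.77) and day 4 was 1.96-fold higher, just under the limit (2.15 under TMM). Ndn measured 327, 155, 267, 265 and 308 CPM, a 2.11-fold range, and was the flattest member. Its highest library was the quiescent one, whose interval overlapped that of day 14, and it was not higher on day 4 than on day 2 (ratio 0.992).

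The scaling of the day 1 library matters for the smaller ratios. Total-UMI scaling put the median of all genes on day 1 at a log2 ratio of -0.15, and under TMM scaling that median was 0.635 higher. Relative to the median of all genes, the day 1 log2 ratios were -3.06 for Meg3, -3.19 for Peg3, -2.75 for Mest, -1.73 for Plagl1, -1.18 for Grb10 and -0.92 for Ndn. Under TMM the Grb10 ratio became 0.572 and the Ndn ratio 0.692, neither past 2-fold. Mest stayed low at 0.140 but no longer reached 20 CPM, and the Dlk1 ratio changed side, at 1.17 against 0.799. Meg3 (0.158), Peg3 (0.110) and Plagl1 (0.363) stayed called. On day 2 TMM gave 0.538 for Meg3 and 0.523 for Peg3, which ended both calls. Mest stayed low on day 2 (0.191 under TMM and 0.198 under DESeq2 scaling, against 0.161) and lost its call only at the limit of 20 CPM.

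The steps between neighbouring time points place the change of direction after day 1. In day 2 over day 1, 4 of 5 members with 20 CPM were called higher (H19 6.36-fold, Meg3 4.2-fold, Plagl1 3.09-fold and Grb10 2.31-fold), where 9.68% of genes were. Day 4 over day 2 called 6 of 7 members higher, where 6.93% of 5542 genes were called. Besides Mest these were H19 at 9.60-fold, Peg3 at 3.20-fold, Meg3 at 2.99-fold, Plagl1 at 2.35-fold and Grb10 at 2.17-fold. The median member log2 ratio of that step was 1.58, against 0.002 over all genes. The Grb10 calls of these steps were near the limit: day 2 over day 1 was 1.88 under TMM and 1.91 under DESeq2 scaling. Its day 4 over day 2 was 2.00 under TMM, just short of the limit, 1.96 under DESeq2 scaling, and 1.94 both as a mean of per-cell CPM and without G2/M cells. For Plagl1 that step was 1.95 as a mean of per-cell CPM. Day 14 over day 4 called H19 (5.84-fold) and Grb10 (2.04-fold) lower, where 5.36% of genes were. The Grb10 ratio was 0.529 as a mean of per-cell CPM, which is not a call.

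The shares of cells are the second measure of the same course. After thinning, H19, Peg3, Plagl1, Grb10 and Mest had their highest share of rest cells on day 4, and all members but Dlk1 their lowest on day 1. How many of all genes did so was not computed. Outside the members, Hic1 (1.15%), Copg2 (1.21%) and Neat1 (15.7%) also had their lowest share on day 1, and Malat1 on day 2 (96.4%). The Grb10 share was 9.75%, 5.22%, 11.7%, 19% and 10.2%. For Peg3 the shares were 3.78%, 0.507%, 1.95%, 4.41% and 2.81%. Ndn stayed between 15.2% (day 1) and 28.6% (quiescent) of rest cells.

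Mest and H19 were called higher in tenocytes than in the rest in 3 libraries each, and Ndn lower in 3. Mest measured 146, 12.5, 25.9, 55.7 and 269 CPM in tenocytes at quiescence and on days 1, 2, 4 and 14. Against the rest this was 6.48-fold higher at quiescence (4.86 to 8.57), 7.13-fold higher on day 2 (4.14 to 11.6) and 6.70-fold higher on day 14 (6.02 to 7.45). On day 4, when Mest was highest in the rest, the ratio was 0.800. The 1138 Mest UMIs of day 14 lay in 360 of 804 tenocytes. Within the tenocytes Mest was 11.7-fold lower on day 1 than at quiescence and 2.63-fold lower on day 4, while the rest of day 4 stood 3.08-fold above its quiescent level.

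H19 in tenocytes measured 29.6, 89.2, 163.6, 512 and 27.0 CPM. It was 13.7-fold higher than in the rest on day 1 (11 to 16.9) and 3.95-fold higher on day 2 (3.25 to 4.77), 1.29-fold on day 4, and 2.52-fold lower on day 14. At quiescence it was 2.41-fold higher (1.29 to 4.19), but 14 of its 15 UMIs lay in 1 cell, and without the deepest 5% of cells the ratio was 0.217. Over this quiescent sum, day 1 was 3.01-fold higher, and 1.85-fold with a gate of 3 UMIs, which is not a call; 3 cells held 0.5 of its 129 UMIs of day 1. On day 2 the 120 H19 UMIs lay in 14 of 99 tenocytes, and 3 cells held 0.5 of them. The share of cells with H19 on that day was 14.1% in tenocytes and 16.8% in the rest, and 6.06% and 3.41% after thinning. H19 in tenocytes was highest on day 4 (17.3-fold over quiescence, 10.4 to 31.0), as in the rest.

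The other members were mostly lower in tenocytes or near the rest. Ndn measured 132, 64.3, 153, 173 and 73.4 CPM in tenocytes and was 2.47-fold lower than in the rest at quiescence, 2.41-fold lower on day 1 and 4.19-fold lower on day 14. Meg3 measured 893, 308, 811, 1342 and 559 CPM, and was called on day 14 (2.53-fold lower). Plagl1 measured 7.91, 4.15, 21.8, 30.5 and 7.58 CPM and was 4.06-fold lower than in the rest on day 14; its call at quiescence, 3.81-fold lower, rested on 4 UMIs. Peg3 measured 49.4, 5.53, 40.9, 35.1 and 27.5 CPM and was 2.47-fold higher on day 2. Grb10 measured 63.2, 40.8, 95.4, 173 and 75.1 CPM with no call against the rest in any library, and Dlk1 stayed under 10 CPM, with 0 UMIs on day 4. From quiescence to day 14, tenocytes had 2, 1, 3, 0 and 1 members called higher than in the rest, where 8.73%, 5.97%, 6.87%, 2.87% and 7.9% of genes were. They had 2, 1, 0, 0 and 4 members called lower, where 12.7%, 5.52%, 6.62%, 3.79% and 9.89% of genes were. The 0 members of day 4 depended on the gate: with gates of 10 UMIs Meg3, Plagl1 and Ndn were called lower in tenocytes on that day.

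**Figure D3:**
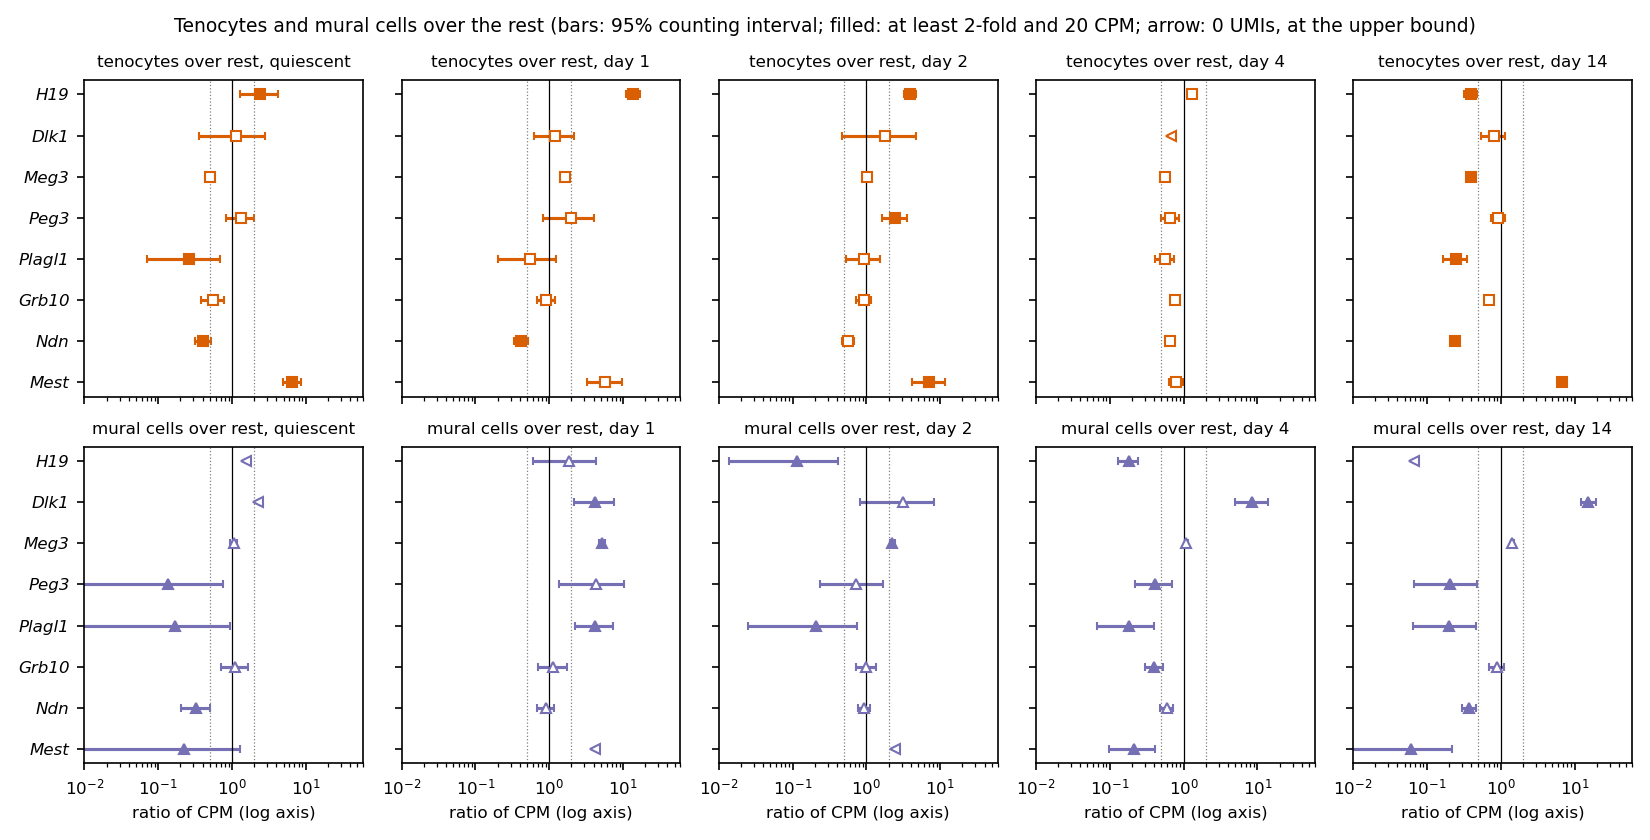
Ratio of CPM in tenocytes (upper row) and mural cells (lower row) over the rest of the same library (log axis beginning at 0.01); bars are 95% counting intervals, filled points were called, and open arrowheads mark 0 UMIs at the upper bound of the ratio. In tenocytes Mest is right of 2-fold at quiescence and on days 1, 2 and 14, and in mural cells Dlk1 is right of 2-fold on days 1, 2, 4 and 14; the open points of day 1 Mest and day 2 Dlk1 had both sums under 20 CPM.

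In mural cells the members of the Dlk1 and Meg3 locus were higher than in the rest in some libraries, and most others were lower. From quiescence to day 14 mural cells had 0, 3, 1, 1 and 1 members called higher, where 24.9%, 18.0%, 8.38%, 15.4% and 18.0% of genes were. They had 4, 0, 2, 5 and 5 members called lower, where 13.9%, 6.73%, 3.45%, 8.63% and 11.1% of genes were. Dlk1 measured 0, 28.9, 9.59, 31.7 and 177 CPM in mural cells, from 0, 12, 4, 19 and 145 UMIs. It was 4.2-fold higher than in the rest on day 1 (2.14 to 7.45), 8.58-fold higher on day 4 (4.98 to 14.0) and 15.4-fold higher on day 14 (12.2 to 19.6). The 145 UMIs of day 14 lay in 23 of 243 cells, and 5 cells held 0.5 of them, with 38 in 1. Against the quiescent mural cells, which had none, day 14 was at least 11.6-fold higher (bound at 3 counts in the quiescent sum).

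Meg3 in mural cells measured 1851, 983, 1785, 2599 and 2023 CPM. Its smallest value was again on day 1, but it was 5.21-fold higher than in the rest of that day (4.71 to 5.76) and 2.25-fold higher on day 2 (2.09 to 2.42). After thinning, 56.0%, 54.6%, 73.8%, 69.3% and 57.6% of mural cells held a Meg3 UMI, so the share in mural cells did not show the low of day 1 seen in the rest. Malat1 in mural cells measured 76355, 33885, 24737, 23614 and 55413 CPM, which is also above the rest in each library, and its part was not tested. TMM scaling lowered the median of all genes in these comparisons by 0.416 to 0.769 on the log2 scale. Meg3 then stood at 3.20 on day 1 and 1.63 on day 2, which ends the second call, and Dlk1 at 2.57, 6.40 and 11.9 on days 1, 4 and 14.

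H19 measured 0, 12.1, 4.79, 71.7 and 0 CPM in mural cells, and so stood clear of the floor of 3 counts on day 4 mainly. On day 4 it was 5.54-fold lower than in the rest and on day 14 at least 18.6-fold lower (0 UMIs, bound at 3 counts). Mest measured 5.08, 0, 0, 15 and 2.45 CPM and was 4.64-fold lower on day 4 and 16.4-fold lower on day 14 (2 UMIs, interval 4.53 to 136.2). Peg3 measured 5.08, 12.1, 12, 21.7 and 6.12 CPM and was 2.44-fold lower than in the rest on day 4 and 4.88-fold lower on day 14. Plagl1 measured 5.08, 31.3, 4.79, 10.0 and 6.12 CPM, and was 5.44-fold lower on day 4 and 5.03-fold lower on day 14. Its day 1 value, 4.19-fold above the rest, came from 13 UMIs in 1 cell, and the ratio was 0.935 as a mean of per-cell CPM. On day 2 H19 (8.64-fold, 2.39 to 71.4) and Plagl1 (4.83-fold, 1.33 to 39.9) were called lower on 2 UMIs each.

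Grb10 and Ndn were closer to the rest in mural cells. Grb10 measured 127, 50.6, 103, 90.03 and 97.9 CPM and was called on day 4 alone (2.49-fold lower), when its rest level was highest. Ndn measured 107, 140, 249, 157 and 115 CPM, 3.07-fold lower than in the rest at quiescence and 2.68-fold lower on day 14. At quiescence Peg3, Plagl1 and Mest were also called lower in mural cells, on 1 UMI each. Peg3 was 7.37-fold lower (1.31 to 292), Plagl1 5.92-fold (1.05 to 235) and Mest 4.44-fold, with an interval across 1 (0.786 to 176) and a ratio of 1.09 in cells of at least 3647 UMIs.

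On day 14 most of the Dlk1 of mural cells sat in cells that were also rich in Meg3. Cells with at least 3 Dlk1 UMIs, a limit chosen after the values were seen, numbered 16 of 243 mural cells on day 14 and held 135 of the 145 Dlk1 UMIs. Meg3 measured 6555 CPM in these 16 and 1573 CPM in the other mural cells, a ratio of 4.17 (3.74 to 4.64). Ndn was 3.08-fold higher in them (1.82 to 5.02), while Peg3 and Mest had 0 UMIs there, and H19 had 0 in all mural cells of that library. The mural genes Rgs5, Higd1b, Acta2 and Myh11 stood at ratios of 0.830, 1.58, 1.72 and 0.676. The 16 cells were deeper, with a median of 4608 UMIs, against 2723, and the part of depth was not tested. Igf2, on 3 UMIs in these cells, stood at 0.351 (0.0711 to 1.06).

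A second set of Dlk1 cells lay in the rest. On day 14, 14 rest cells held 105 of the 143 Dlk1 UMIs, and their Meg3 measured 5571 CPM, against 1382 CPM in the other rest cells (4.03-fold, 3.70 to 4.39). These cells also held Mest (8.52-fold higher, in 10 of the cells), Peg3 (5.25-fold, in 8), H19 (14.7-fold, its 89 UMIs in 3) and Igf2 (39.5-fold, in 5). At quiescence 8 such rest cells had 3.07-fold more Meg3 than the others, and on days 1, 2 and 4 the ratio was 1.72, 0.741 and 1.96. The numbers of cells are small, the cells come from 1 library each, and doublets were not removed.

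At quiescence and on day 14, Mest and Peg3 were higher in rest cells with at least 5 UMIs over Cxcl14, Hsd11b1 and Smoc2, genes that led a population in an earlier analysis of these files. Mest at quiescence measured 34.6 CPM in the 962 cells inside this gate and 9.25 CPM in the 938 outside, a ratio of 3.74 (2.53 to 5.68). On day 14 it measured 72.8 CPM in 1053 cells inside and 10.2 CPM in 1371 outside, a ratio of 7.15 (5.50 to 9.40). Peg3 was 2.72-fold higher inside at quiescence (2.06 to 3.64) and 2.25-fold on day 14, and Meg3 1.69-fold and 1.73-fold. On days 1, 2 and 4 the Peg3 ratio was 0.643 (0.439 to 0.936), 0.806 (0.673 to 0.964) and 1.53, and the Mest ratio 1.65, 1.35 and 1.15 (1.05 to 1.26), with the sums of days 1 and 2 under 20 CPM. Dlk1 had 61 of 63 UMIs inside at quiescence, 257 of 294 on day 1, 55 of 98 on day 2, 60 of 111 on day 4 and 138 of 143 on day 14. Ndn and Plagl1 did not reach 2-fold in either library.

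Cells with at least 5 UMIs over Pi16, Dpp4, Cd55, Stmn4 and Efemp1, genes of an adventitial kind of progenitor, had less of both members at quiescence and on days 4 and 14. The inside-over-outside ratio of Peg3 was 0.416 at quiescence, 0.767 on day 4 and 0.497 on day 14, and that of Mest 0.416, 0.468 and 0.761. Peg3 stood at 2.01 (1.38 to 2.92) on day 1 and 1.03 on day 2, with both sums under 20 CPM. H19 changed sides between time points in this gate: it was 4.06-fold higher inside on day 1 and 2.50-fold higher on day 2, but its ratio was 0.561 on day 4. In the Cxcl14 gate H19 ran the other way, at 0.272, 0.283 and 1.57 on days 1, 2 and 4. The day 1 values of H19 are under 20 CPM in the rest as a whole. The H19 level was thus higher inside the Pi16 gate on days 1 and 2 and inside the Cxcl14 gate on day 4. The difference was not tested. A fixed limit of 5 UMIs need not take the same cells in libraries of unlike depth. On day 2 the median depth was 15704 UMIs inside the Cxcl14 gate and 9385 outside, and 9961 and 12939 UMIs for the Pi16 gate. The part of depth in these ratios was not tested.

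A further pair of gates gave low values for single members in some libraries. Cells with at least 5 UMIs over Dmkn, Sbsn and Krtdap had Mest ratios of 0.185, 0.133 and 0.152 at quiescence and on days 4 and 14, and Peg3 ratios of 0.281, 0.210 and 0.230. The quiescent Mest value rested on 4 UMIs inside the gate (0.0497 to 0.482). Cells past the same limit for Clu, Gdf10, Prg4 and Cyp2f2 had a Plagl1 ratio of 0.227 at quiescence and 0.263 on day 14, and a Meg3 ratio of 0.445 and 0.480. The quiescent Plagl1 value rested on 4 UMIs inside (0.0613 to 0.590). On day 1 the Plagl1 ratio was 0.777, with both sums under 20 CPM, and on day 2 it was 1.10. The Meg3 ratio was 0.803 and 1.10 on those days. This gate held 132 rest cells at quiescence, 2044 on day 1 and 1510 on day 2, so it need not take the same kind of cell in each library.

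**Figure D4:**
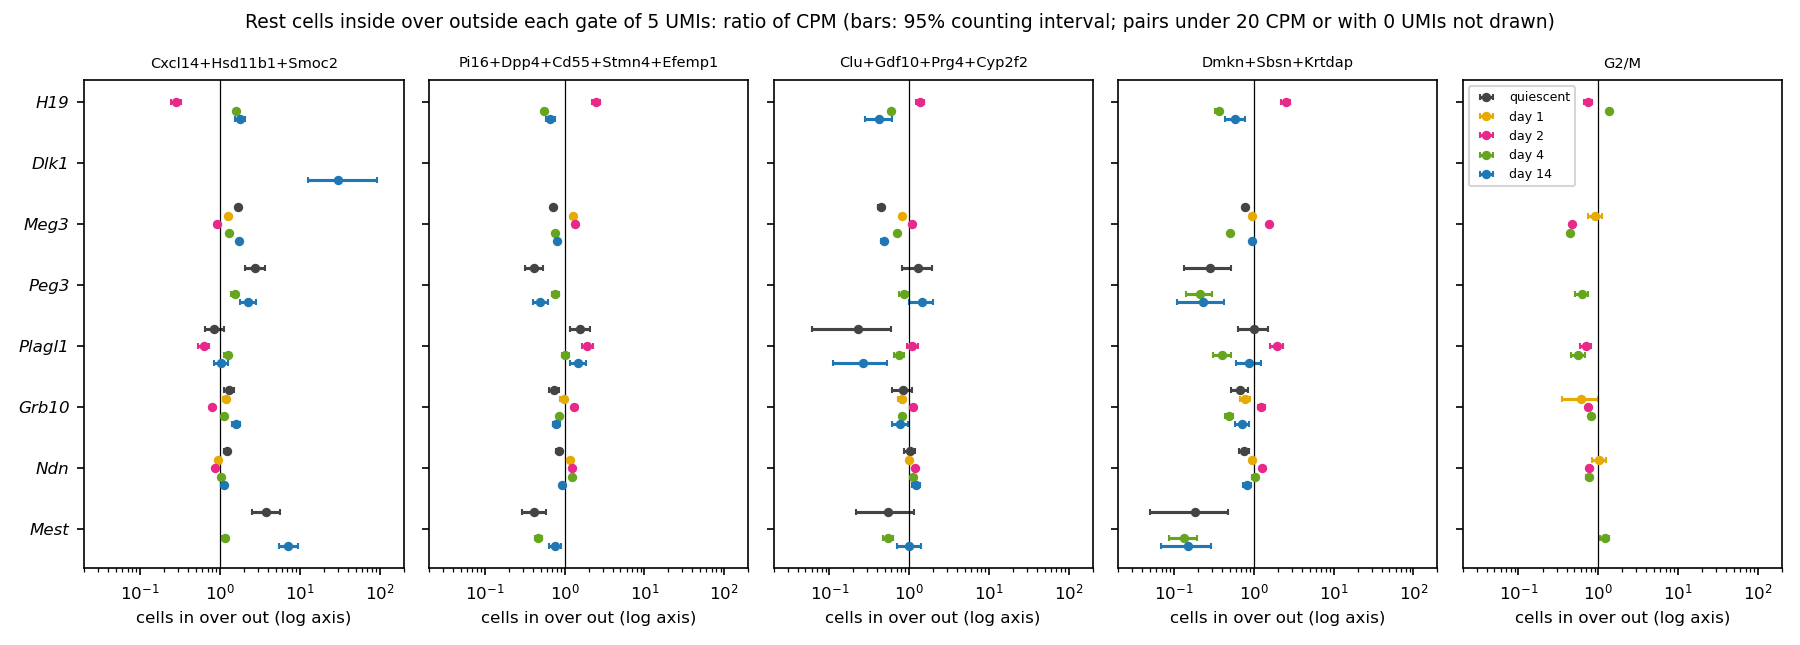
Ratio of CPM in rest cells inside over outside 5 gates of at least 5 summed UMIs (log axis), by member and library (colours); bars are 95% counting intervals, and points with both sums under 20 CPM or with 0 UMIs on one side are not drawn. Mest and Peg3 lie right of 1 in the Cxcl14 gate and left of 1 in the Dmkn gate at quiescence and on days 4 and 14.

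Cells past a G2/M gate had lower Meg3 CPM on days 2 and 4. On day 2 the 795 rest cells with at least 5 UMIs over 14 G2/M genes measured 506 CPM of Meg3, against 1080 CPM in the other rest cells, a ratio of 0.469. On day 4 the 266 such cells measured 1127 CPM, against 2540 CPM, a ratio of 0.443. On day 1 the 35 such cells gave a ratio of 0.915 (0.744 to 1.11). These cells were deeper, with medians of 19096 UMIs on day 2, against 8512.5, and 12258 UMIs on day 4, against 6780. The share of cells with a Meg3 UMI on day 2 was 89.6% in them and 86.0% in the others. Without them the day 2 ratio of Meg3 to quiescence was 0.616 and that of Peg3 0.501, neither of them called. H19 was 1.37-fold and Mest 1.20-fold higher in the G2/M cells of day 4, while Plagl1 (0.558) and Peg3 (0.618) were lower in them. H19 changed sides, since its ratio in the G2/M cells of day 2 was 0.737 (0.659 to 0.823). Quiescent and day 14 libraries held 3 and 2 such cells and gave no value.

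Whether the members moved together was described by Pearson's r of log2(CPM + 1) over the 15 sums of 3 classes and 5 libraries. The 15 points share libraries and classes, and r here carries no test. The median r of the 28 member pairs was 0.286, against 0.044 over all pairs of 8676 genes, whose 90th percentile was 0.572. With the mean of each class removed, which leaves the course over time, the median was 0.507, against 0.031. Then 14 of the 28 pairs reached 0.5 and 5 were below 0. The shares of all gene pairs past these limits were not computed, so how unusual these counts are is not known.

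Dlk1 was then set apart because of its low r in these same data, which by itself raises the median of the pairs left. No background with a like exclusion was computed. The 21 pairs without Dlk1 had a median r of 0.556 with class means removed, and the lowest was 0.087. Meg3 and Grb10 were alike at 0.748, and at 0.864 with class means removed. Meg3 and Peg3 reached 0.407 and 0.851. Meg3 and Mest were unlike at 0.0135 but reached 0.678 once class means were removed. Dlk1 had an r of 0.098 to Meg3, its neighbour, and of -0.388 to Grb10, and its 7 pairs lay between -0.445 and 0.030 with class means removed. All 15 sums weighed alike in r, though several were at the floor. Dlk1 had 0 UMIs in the tenocytes of day 4 and in the quiescent mural cells. In mural cells H19 had 0 UMIs at quiescence and on day 14, and Mest 0 UMIs on days 1 and 2. The part of counting error in these r values was not tested. The likeness leaned on days 1 and 4. Without day 4 the median r was 0.174, and 0.378 with class means removed. Without day 1 the median with class means removed was 0.380, and 7 pairs reached 0.5.

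**Figure D5:**
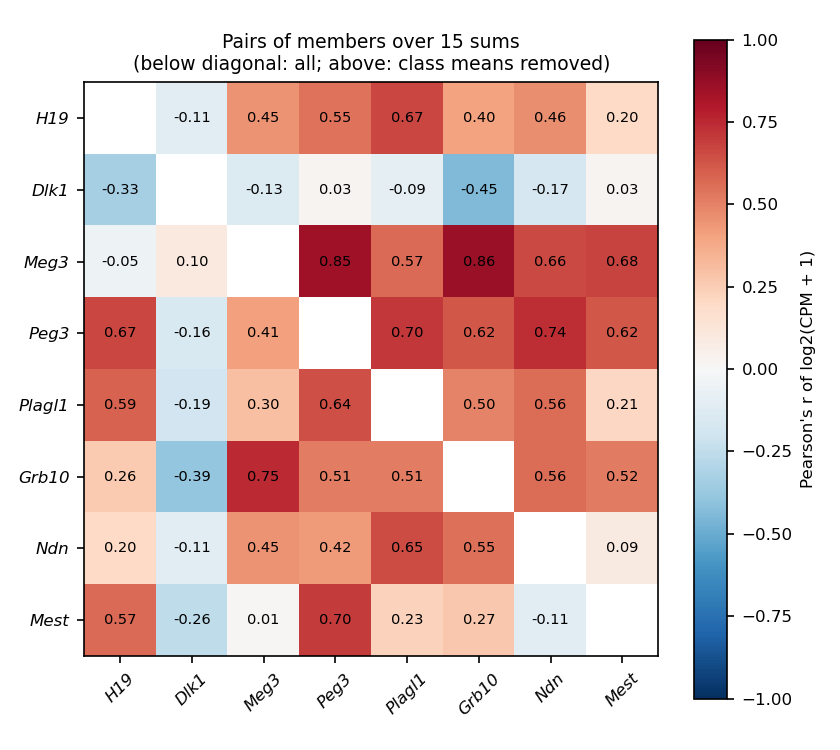
Pearson's r of log2(CPM + 1) over 15 class-by-library sums for each pair of members, as is below the diagonal and with class means removed above it (colour scale from -1 to 1). The 7 pairs with Dlk1 lie at 0.10 or lower, and the Meg3 and Grb10 pair stands at 0.748 below the diagonal and 0.864 above it.

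Among the genes outside the members whose pattern was nearest to the members' mean over the 15 sums were Grn (r = 0.911), Fuca1 (0.910), Col5a1 (0.891), Col6a1 (0.891), Cercam (0.890), Lamtor4 (0.885) and Ggh (0.882). Grn measured 203, 70.0, 187, 491 and 264 CPM in the rest, and so had its low on day 1 and its high on day 4. By member, the nearest genes were Col8a1 (0.882) and Bgn (0.868) for H19, C1qtnf2 (0.946) and Crip1 (0.917) for Meg3, and Spice1 (0.844) and Nxt2 (0.815) for Dlk1. Peg3 was nearest to Ggh (0.941) and Col6a1 (0.940), Plagl1 to Tapbp (0.830) and Sp140 (0.801), and Grb10 to Fap (0.916) and Ncstn (0.865). Ndn was nearest to Dpep1 (0.954) and Slc43a3 (0.952), and Mest to Mdk (0.963) and Igsf10 (0.962).

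Within single rest cells, thinned to 1000 UMIs, some members met in the same cell more often than their shares predict. Intervals above 1 were most numerous on day 4. There 18 pairs had at least 10 cells expected, their median observed-over-expected ratio was 1.23, and 8 had an interval above 1. Of all pairs of genes found in at least 5% of cells, 2.14% did. These pairs had a median of 1.00 and a 90th percentile of 1.18. Member pairs had no limit of 5%, and Peg3 (4.41%) and Plagl1 (4.36%) were under it, so the 2 sets of pairs are unlike. The lower bounds of Meg3 with Peg3 (1.005) and of Peg3 with Grb10 (1.001) were barely above 1. H19 and Peg3 met in 49 cells, where 23.7 were expected (2.07, 1.53 to 2.73). Meg3 and Mest stood at 1.26, H19 and Grb10 at 1.36 (1.14 to 1.61), and H19 and Ndn at 0.947. The number of pairs with an interval above 1 was 0 of 10 at quiescence, 1 of 3 on day 1, 0 of 9 on day 2 and 2 of 11 on day 14, where Meg3 and Mest stood at 1.42 (1.10 to 1.81). Of all pairs 1.16%, 2.43%, 1.93% and 1.53% did in those libraries. The median ratio of member pairs there was 1.086, 1.165, 1.028 and 1.113. Intervals narrow as more cells are expected, so these counts are not alike between libraries. Meg3 and Grb10 stood at 1.52 on day 1 with 39.4 cells expected, and at 1.08 on day 4 with 481.3 expected. Thinned to 2500 UMIs, day 1 had 5 of 13 pairs above 1, with a median of 1.21. No pair had an interval below 1 in any library at 1000 UMIs.

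The same rest cells of day 4 were also split by their H19, which gives no support independent of the pairs above. Rest cells with at least 5 H19 UMIs, a limit chosen after the values were seen, numbered 541, against 3269 others, and were deeper (median 10171 UMIs, against 6605). In them Peg3 measured 89.6 CPM, against 43.9 CPM (2.04-fold), Plagl1 was 1.74-fold, Mest 1.69-fold, Grb10 1.39-fold and Meg3 1.31-fold higher, and the Ndn ratio was 0.954. Postn and Cthrc1, matrix genes of activated fibroblasts, were 1.70-fold and 1.92-fold higher, and Mki67, a proliferation gene, 1.99-fold. Dpp4 and Pi16 were lower there, at ratios of 0.332 and 0.254. On day 14 the 53 H19-rich rest cells had 4.06-fold more Mest, 3.57-fold more Peg3 and 6.48-fold more Cthrc1 than the other 2371.

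Of 38 other genes known to be imprinted in some mouse tissue, 36 were measured. In the rest 8 of the 11 that reached 20 CPM were called lower on day 1 and none higher, beside 24.3% and 15.5% of all genes. Cdkn1c, a maternally read inhibitor of the cell cycle, measured 2.25 CPM on day 1 and 51.7 CPM at quiescence, 23.0-fold lower (18.3 to 29.1). Igf2r, which clears IGF2, was 5.45-fold lower, its antisense partner Airn 5.30-fold, and Dcn, a matrix proteoglycan, 3.62-fold. Under TMM the ratios of Cdkn1c (0.0636), Igf2r (0.268), Airn (0.276) and Dcn (0.404) stayed past 2-fold. Igf2r and Airn overlap on opposite strands. Strand counting is not stated, so whether their reads were kept apart is not known here.

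On later days fewer genes of the wider list were called. On day 2, 5 of 11 were called lower, where 17.4% of genes were, Cdkn1c by 8.89-fold. On day 4, 2 of 11 were still called lower, where 9.92% of genes were, Cdkn1c by 2.11-fold and Dcn by 2.10-fold, and none was higher, where 6.34% were. Day 4 over day 2 called 3 of 11 higher (Cdkn1c 4.22-fold, Airn 2.62-fold and Igf2r 2.27-fold), where 6.93% of genes were. On day 14 the single call of 12 was Igf2, 3.14-fold higher (2.31 to 4.35), with 40 of its 262 UMIs in 1 cell, where 1.04% of genes were called. Whether the wider list and the members differ was not tested.

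Igf2, a growth factor whose gene is the neighbour of H19 and is read from the paternal copy, was higher in mural cells than in the rest in all 5 libraries. It measured 66.1, 31.3, 40.7, 86.7 and 108.9 CPM in mural cells, and 6.70, 4.15, 2.81, 16.6 and 21 CPM in the rest. The mural ratio was 9.86, 7.55, 14.5, 5.21 and 5.17 from quiescence to day 14, and 3.89 to 10.5 under TMM. H19, its neighbour, was called lower in mural cells than in the rest on days 2, 4 and 14. Nnat, a paternally read membrane protein, was 35.6-fold higher in tenocytes than in the rest on day 14 (20.2 to 68.4; 37.2 CPM and 1.04 CPM), with 0.5 of its 157 UMIs in 5 cells.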

How the data were processed

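For each of 5 libraries, 1 per group and made with 10x 3′ v2 chemistry, a matrix of UMI counts by gene and barcode was deposited by the authors. Per the submitters' processing notes the counts came from Cell Ranger on mm10; its version, the lower cell limits, strand counting and any doublet removal are not stated. The deposited counts are raw whole numbers and were read as such with Python 3.11.15 (numpy 2.4.6, scipy 1.17.1, pandas 2.3.3, matplotlib 3.10.9). Cells with at least 500 genes and at most 10% mitochondrially encoded UMIs were kept. Tenocytes and mural cells were gated at 5 UMIs, counts were summed per class and library, and divided by the sum's total to give CPM. No doublet caller was run, since an earlier caller marked too few cells of these files. With 1 library per group there is no test and no p-value. Ratios of CPM carry exact conditional binomial 95% intervals, CPM Poisson intervals and shares exact Clopper-Pearson intervals, all for counting error only; transcripts captured from 1 pool of cells are not replicates. A call needed 2-fold and 20 CPM over all genes of a comparison, log2 ratios in medians used a prior of 1 CPM, and sums of 0 were bounded at 3 counts. Shares were compared after thinning to 1000 UMIs per cell. Alternatives included TMM (edgeR 4.0.16) and DESeq2 1.42.0 size factors (R 4.3.3), used for scaling only. The procedure was tested on simulated counts. All 8 members are named; other genes are the 8 most like the members' mean (1 of them is not reported here), the 2 most like each member, and the 4 largest ratios of the wider imprinted list per comparison with 20 CPM, while Igf2 and Nnat in the class comparisons, and the companions in rich cells, were chosen after their values were seen. The members, lists and gates were chosen with earlier results of these data known. Genes of the wider list that are not among the features were not analysed here. Promoter windows came from RefSeq and gene positions from GENCODE M21.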

Additional observations from a re-analysis of the deposited data

Results flagged for a closer look

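Effects that ran in opposite directions between classes or time points were picked out, each from 1 library per group, and none of these differences was tested. Plagl1 on day 1 over quiescence was 6.16 in mural cells (13 UMIs in 1 cell, against 1 UMI) and 0.248 in the rest. Mest on day 4 over quiescence was 0.381 in tenocytes and 3.08 in the rest. The H19 ratio of tenocytes over the rest was 2.41 at quiescence, 13.7 on day 1 and 3.95 on day 2, but 0.396 on day 14. The Plagl1 ratio of mural cells over the rest was 4.19 on day 1, and 0.169 at quiescence, 0.207 on day 2, 0.184 on day 4 and 0.199 on day 14.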

How the results depend on the processing

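No paired analysis was possible because each group was 1 library. Leaving out G2/M cells, leaving out 1 library, thinning to 2500 UMIs and asking for 10 UMIs behind a call were chosen after seeing the data. Over 21 settings, 445 of 485 recomputed counts and likeness values stayed within 1.5 times (counts) or 0.1 (r) of their value, 40 moved further and 0 reversed. Of 922 recomputed ratios of called members, 881 stayed past 2-fold in the same direction and 38 kept the direction without the call. The 3 that changed direction were Plagl1 in mural cells over the rest on day 1 (0.935 as a mean of per-cell CPM), H19 in tenocytes over the rest at quiescence (0.217 without the deepest 5% of cells) and Mest in mural cells over the rest at quiescence (1.09 in cells of at least 3647 UMIs). These tallies include outcomes that could not move. A limit of 5 CPM left every ratio as it was, and dropping rest cells could not alter comparisons within tenocytes or within mural cells. The limit of 10 UMIs looked at the higher sum only, and counts of 0 that stayed 0 were tallied as kept. Under TMM and DESeq2 scaling the members called lower in the rest were 3 on day 1 and 0 on day 2; DESeq2 called 4 higher on day 4, adding Plagl1 and Grb10. Under TMM 1 member (Ndn) was lower in tenocytes on day 2, and 0 were higher in mural cells on day 2. A limit of 5 CPM added Dlk1 once each (1 lower on day 4, 1 lower on day 2 over day 1, 1 higher on day 14 over day 4, 2 higher in mural cells on day 2) and Mest (2 higher in tenocytes on day 1). Within that tolerance, the members called higher were 3 rather than 4 on day 2 over day 1 under TMM and DESeq2 scaling. On day 4 over day 2 they were 5 rather than 6 under those scalings and without G2/M cells, and 4 as means of per-cell CPM. Gates of 10 UMIs gave 1 lower in tenocytes on day 2, 3 lower on day 4, and a median r of 0.356 with class means removed. Means of per-cell CPM gave 1 lower on day 14 over day 4, and in tenocytes 1 higher and 4 lower at quiescence, 2 higher on day 1, and 1 lower on days 2 and 4. Cells of at least 3647 UMIs gave 2 higher on day 14 (with Mest), 6 pairs of r at least 0.5, and a median of 0.407 with class means removed. Without G2/M cells 1 member was lower on day 2 and 0 were higher in mural cells on day 2. Without the deepest 5% of cells, a change made because doublets were not called, tenocytes had 1 higher and 4 lower at quiescence and 1 lower on day 4, and mural cells 0 higher on day 2. Thinning to 2500 UMIs gave 5 pairs of 13 above expectation on day 1, 1 of 15 on day 2 and 1 of 17 on day 14. Leaving out 1 library, the median r ran from 0.174 to 0.401 and from 0.378 to 0.564 with class means removed, and the pairs of at least 0.5 from 6 to 11 and from 7 to 18. The cause of these moves was not tested. Depth limits Dlk1 and all mural members but Meg3, Grb10 and Ndn, which rested on few UMIs.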
